A study of Oryza sativa Japonica Group with 8 samples.

Results

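Auxin is a mobile plant hormone that accumulates at the sites where a meristem forms a new branch, bract or flower. It is made from tryptophan in a pair of steps: an aminotransferase of the TAA1 family, which FIB encodes in rice, gives indole-3-pyruvate, and flavin monooxygenases of the YUCCA family turn this into indole-3-acetic acid. AUX1-type permeases carry auxin into cells, PIN proteins carry it out on one side of the cell, and the kinase PINOID, known mainly from Arabidopsis, sets that side by phosphorylating PIN proteins. In maize, mutants of a YUCCA gene, of a TAA1-type gene and of the PINOID orthologue form few branches and spikelets.

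In all, 10 genes of this pathway were chosen by identifier, and all 10 were among the 37859 genes of the expression table. They were 3 synthesis genes (FIB, Os01g0169800, YUCCA1, Os01g0645400, and YUCCA4, Os01g0224700) and 5 efflux carrier genes (PIN1a, Os06g0232300, PIN1b, Os02g0743400, PIN1c, Os11g0137000, PIN1d, Os12g0133800, and PIN3a, Os01g0643300). The other 2 were the kinase gene PID, Os12g0614600, and the influx carrier gene AUX1, Os01g0856500. By their identifiers, 5 of the 10 lay on chromosome 1, 2 on chromosome 12 and 1 each on chromosomes 2, 6 and 11. The letters of these carrier names are not used uniformly: the RefSeq gene table lists the synonym OsPIN1a for an entry on chromosome 2 and for another on chromosome 6, so the identifiers, not the names, define the genes here.

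The series compared an osg1l2 single mutant of rice (cultivar Nipponbare) with a wild type control, to ask how OsG1L2, an ALOG family gene that the series title links to inflorescence branching, shapes the transcriptome of the young inflorescence. Plants of both genotypes were sown in long days (16 h light at 28°C, 8 h dark at 26°C) and sampled after 12 days in short days (12 h light at 28°C, 12 h dark at 26°C), at 70% humidity, and the tissue was early-stage meristems, with enrichment for those abbreviated PBM and ePBM/Ams in the labels. There were 4 libraries per genotype, called independent by the design text, which does not name what was separate; the p-values thus cover the spread between libraries, which may be technical. The nature of the mutant allele and how many lines carried it are not stated. Neither the expression of OsG1L2 nor markers of the labelled tissue were analysed here, because no table pairs their names with these identifiers, so the genotype and tissue labels were not checked.

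Levels are the authors' FPKM, fragment abundance scaled to gene length and library size, in which gene length is divided out. Levels of different genes are set side by side on this FPKM scale, and the authors' deposited table ranks some of them otherwise, as given with that table. FPKM summed to between 213940 and 231675 per library; the number of reads behind them is unknown. On the second principal component of all tested genes, wild type replicate 2 stood apart at -28.4, against 4.87 to 10.8 for the other wild type libraries, so each log2 fold change is also given without it. No sequencing batch is given in the labels.

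None of the 10 genes was called different between osg1l2 and wild type. Of these, 6 reached a mean of 1 FPKM over the 8 libraries and entered the test, limma on log2(FPKM + 1) over 18254 genes with Benjamini-Hochberg adjustment, in which 352 genes (1.93%) passed an adjusted p under 0.05. Of the 6 members tested, 0 passed and 0 had an unadjusted p under 0.05, which 19.5% of all tested genes had. In a fit with no filter on low values, which tested all 10, 0 passed (1.32% of 32542 genes did) and 1, PIN3a, had an unadjusted p under 0.05 (15.6% did). In none of the 10 did the 4 values of one genotype lie above the 4 of the other, a separation seen in 11.8% of the 18254 tested genes and 9.3% of the 32542. The median log2 fold change of the 6 tested members was -0.03, against -0.04 over all tested genes. Of the 6, 3 were below 0, as were 61.7% of all tested genes. With library quality weights 6.01% of genes were called and without wild type replicate 2 4.55% were, and again 0 of the 6 members. In bulk tissue, a change in the share of cells that use a gene and a change in RNA per cell cannot be told apart.

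**Figure D1:**
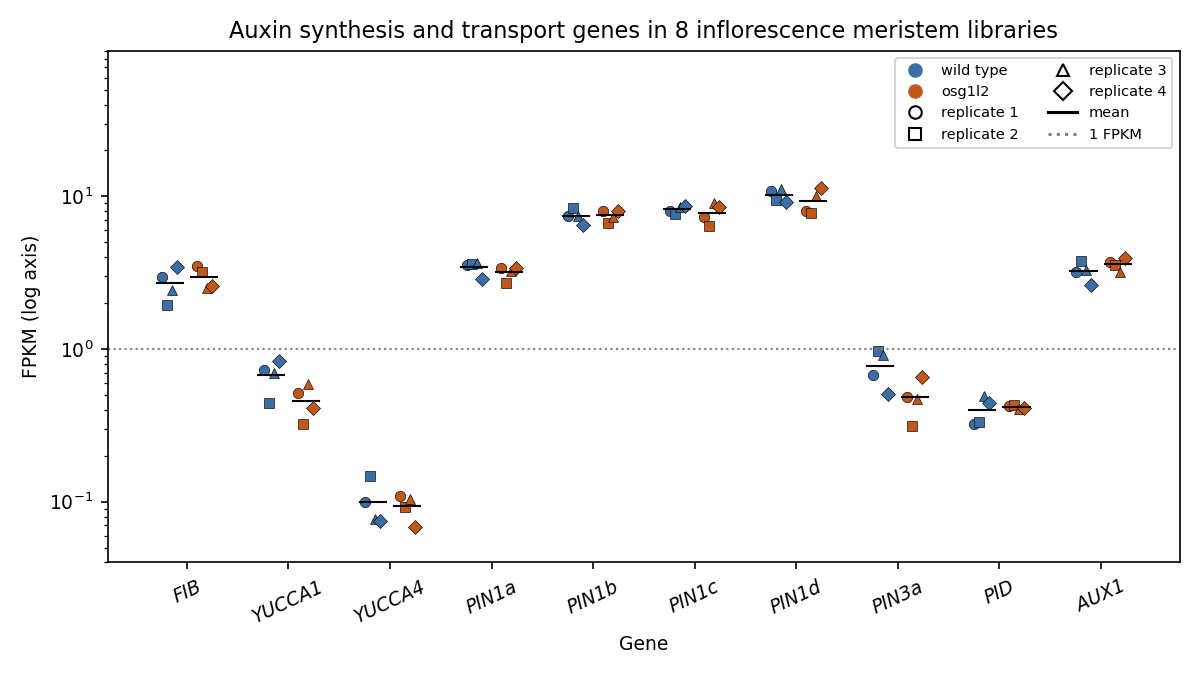
FPKM (log axis) of the 10 auxin genes in each library; colours give the genotype, symbols the replicate number, bars the mean of 4 libraries and the dotted line 1 FPKM. Wild type and osg1l2 values overlap for every gene, and the genes span from about 0.1 FPKM (YUCCA4) to about 10 FPKM (PIN1d).

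Among the synthesis genes, FIB, the aminotransferase gene, was the most abundant. It was at 2.95, 1.93, 2.45 and 3.45 FPKM in wild type replicates 1 to 4 and at 3.49, 3.22, 2.50 and 2.58 FPKM in osg1l2 replicates 1 to 4. The genotypes overlapped, with 2 wild type libraries below the lowest osg1l2 library and 1 osg1l2 library just above the highest wild type one. The means were 2.69 ± 0.65 FPKM in wild type against 2.95 ± 0.48 FPKM in osg1l2 (SD, n = 4 each), a log2 fold change of 0.10 (95% interval -0.20 to 0.41, limma adjusted p = 0.71). The value rested on wild type replicate 2, the lowest library, without which the log2 fold change was -0.00028. FIB varied between libraries of a genotype by a pooled coefficient of variation of 20.6%, against a median of 10.9% over 2425 genes of similar level (0.8 to 1.2 times its mean).

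YUCCA1, one of the monooxygenase genes, was below 1 FPKM in all 8 libraries. Its values were 0.731, 0.443, 0.702 and 0.840 FPKM in wild type and 0.516, 0.322, 0.588 and 0.414 FPKM in osg1l2. In all, 3 of the 4 wild type libraries lay above every osg1l2 library, and wild type replicate 2 lay among the osg1l2 values. Mean FPKM was 0.679 ± 0.168 (SD, n = 4) in wild type and 0.460 ± 0.117 (SD, n = 4) in osg1l2, a ratio of 0.678. An exact two-sided permutation test on FPKM gave p = 0.0857, where 0.0286 is the smallest p that 4 against 4 libraries allow. In the fit with no filter the log2 fold change of FPKM + 1 was -0.20 (95% interval -0.41 to 0.0098, limma adjusted p = 0.34), and without wild type replicate 2 it was -0.27.

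YUCCA4, the other monooxygenase gene, was the lowest of the 10 genes in every library. It ranged from 0.0753 to 0.147 FPKM in wild type and from 0.0681 to 0.110 FPKM in osg1l2, and the groups overlapped. Its mean of 0.0967 FPKM over the 8 libraries placed it above 35.5% of the 37859 genes. The exact two-sided permutation p was 0.80, and its log2 fold change of -0.01 had a 95% interval from -0.06 to 0.05 in the fit with no filter, which the added 1 FPKM keeps narrow at such a level. Without wild type replicate 2 it was 0.01.

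The balance within the synthesis genes was examined after these values had been seen, so it is given without a test. FIB exceeded YUCCA1 by a ratio of 4.03, 4.37, 3.48 and 4.11 in wild type replicates 1 to 4. In osg1l2 the ratio was 6.76, 9.99, 4.26 and 6.23. The ratio in 3 osg1l2 libraries thus lay above every wild type library, while osg1l2 replicate 3 lay within the wild type range. FIB made up 75.8% to 79.0% of the summed FPKM of the 3 synthesis genes in wild type and 78.4% to 88.6% in osg1l2. The summed FPKM itself was 3.47 ± 0.78 (SD, n = 4) in wild type and 3.50 ± 0.48 (SD, n = 4) in osg1l2. These ratios and shares restate the FIB, YUCCA1 and YUCCA4 values above, and none of these 3 genes was called. Further YUCCA genes were not part of the sum.

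PIN1d, an efflux carrier gene, had the highest mean FPKM of the 10 genes in both genotypes, though not the highest value in the authors' deposited table. It was at 10.8, 9.55, 11.2 and 9.24 FPKM in wild type and 8.01, 7.79, 10.1 and 11.3 FPKM in osg1l2. Its osg1l2 values included both the 2 lowest and the highest of the 8 libraries. Means were 10.2 ± 0.972 FPKM in wild type against 9.30 ± 1.69 FPKM in osg1l2 (SD, n = 4 each), with a log2 fold change of -0.13 (95% interval -0.39 to 0.12, limma adjusted p = 0.56). Without wild type replicate 2 it was -0.16. Its pooled coefficient of variation of 14.5% stood against a median of 7.48% over 2245 genes of similar level, and that of PIN1c was 11.5% against 7.84% over 2514 genes.

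PIN1c, its close paralogue, showed a similar arrangement of libraries. It was at 8.05, 7.69, 8.52 and 8.64 FPKM in wild type and 7.28, 6.44, 9.12 and 8.48 FPKM in osg1l2. As for PIN1d, osg1l2 replicates 1 and 2 were the 2 lowest of the 8 libraries, and an osg1l2 library was the highest. The log2 fold change was -0.07 (95% interval -0.28 to 0.14, limma adjusted p = 0.71), and it was 0.0072 without osg1l2 replicate 2 and -0.10 without wild type replicate 2. How reads matching both paralogues were divided is not stated, so the split between them is uncertain. Their sum was 18.4 ± 1.11 FPKM in wild type against 17.1 ± 2.78 FPKM in osg1l2 (SD, n = 4 each), and FPKM of PIN1d exceeded that of PIN1c in each of the 8 libraries, by a ratio of 1.07 to 1.35. In the authors' deposited table the direction was the opposite, with wild type values of 17.7 for PIN1d and 17.8 for PIN1c and osg1l2 values of 16.5 and 17.1.

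PIN1b and PIN1a, also efflux carrier genes, showed no called difference either. PIN1b was at 7.46, 8.38, 7.40 and 6.54 FPKM in wild type and 8.08, 6.68, 7.33 and 8.02 FPKM in osg1l2. Both the highest and the lowest of its 8 values were wild type, and its log2 fold change was 0.01 (95% interval -0.17 to 0.19, limma adjusted p = 0.94), or 0.07 without wild type replicate 2. PIN1a was at 3.57, 3.60, 3.65 and 2.87 FPKM in wild type and 3.38, 2.70, 3.23 and 3.39 FPKM in osg1l2. Wild type replicates 1 to 3 lay above all osg1l2 libraries, and wild type replicate 4 lay below 3 of them. The log2 fold change of PIN1a was -0.08 (95% interval -0.27 to 0.10, limma adjusted p = 0.62), or -0.06 without wild type replicate 2.

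PIN3a, the remaining efflux carrier gene, had the largest proportional difference in mean FPKM between the genotypes among the 10. It was at 0.676, 0.975, 0.920 and 0.507 FPKM in wild type and 0.485, 0.315, 0.474 and 0.658 FPKM in osg1l2. In all, 3 of the 4 wild type libraries were above every osg1l2 library and 3 of the 4 osg1l2 libraries were below every wild type library, with wild type replicate 4 and osg1l2 replicate 4 crossing. Mean FPKM was 0.769 ± 0.218 (SD, n = 4) in wild type and 0.483 ± 0.140 (SD, n = 4) in osg1l2, a ratio of 0.628, and the exact two-sided permutation test gave p = 0.0571. In the fit with no filter the log2 fold change of FPKM + 1 was -0.25 (95% interval -0.50 to -0.0014), and limma gave an unadjusted p of 0.0491 that became 0.32 after adjustment. The difference was therefore not called, and the number of fragments behind values under 1 FPKM is unknown. Without wild type replicate 2 the log2 fold change was -0.195.

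PID, which encodes the PINOID-type kinase, was also below 1 FPKM in all libraries. Its values were 0.325, 0.334, 0.492 and 0.445 FPKM in wild type and 0.424, 0.430, 0.406 and 0.408 FPKM in osg1l2. All osg1l2 values lay inside the wild type range, and they were close together, with a coefficient of variation of 2.77% against 20.7% in wild type. The pooled coefficient was 14.8%, against a median of 30.0% over 1158 genes of similar level. Mean FPKM was 0.399 ± 0.083 (SD, n = 4) in wild type and 0.417 ± 0.012 (SD, n = 4) in osg1l2, and the exact two-sided permutation p was 0.71. Its log2 fold change was 0.02, or -0.0020 without wild type replicate 2.

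AUX1, the influx carrier gene, had the smallest p of the 6 tested members. It was at 3.21, 3.77, 3.28 and 2.63 FPKM in wild type and 3.73, 3.54, 3.21 and 3.94 FPKM in osg1l2. The groups overlapped, with the highest library from osg1l2 and the lowest from wild type. Means were 3.22 ± 0.466 FPKM in wild type against 3.61 ± 0.307 FPKM in osg1l2 (SD, n = 4 each), a log2 fold change of 0.13 (95% interval -0.07 to 0.33), which limma gave an adjusted p of 0.45. Without wild type replicate 2 the log2 fold change was 0.19 (limma adjusted p = 0.20). Without wild type replicate 4, the lowest library, it was 0.06 (limma adjusted p = 0.76).

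**Figure D2:**
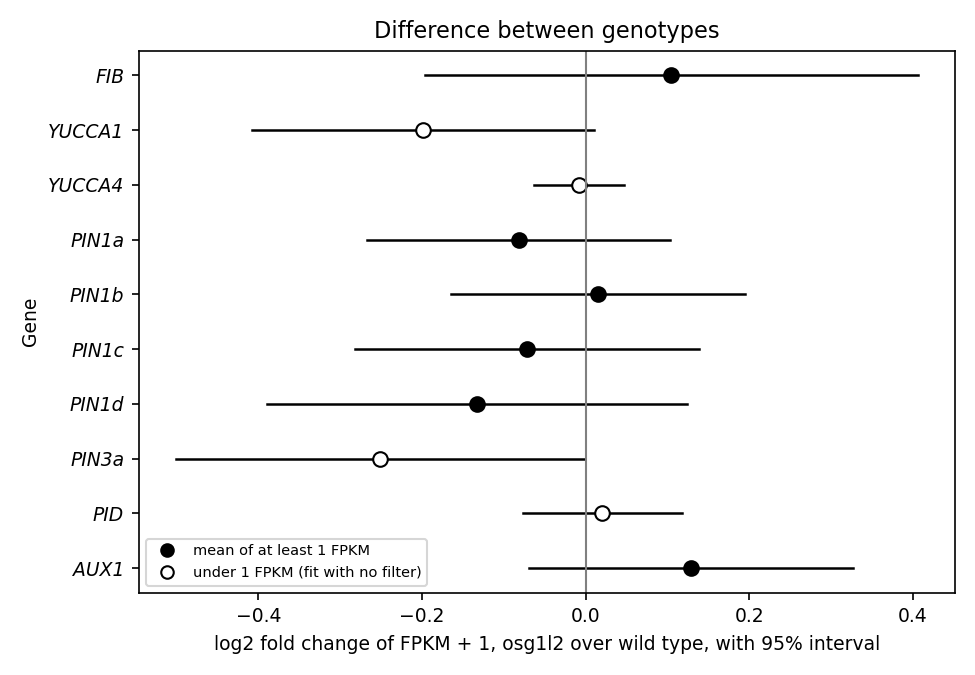
Log2 fold change of FPKM + 1, osg1l2 over wild type, with its 95% interval from limma; filled points are the 6 genes that averaged 1 FPKM or more, and open points are the 4 lower genes, with intervals from the fit with no filter. Every interval except that of PIN3a, which ends at -0.0014, includes 0.

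The intervals give the range of differences compatible with the spread between these libraries. The interval of PIN1d ran from a fold of 0.763 to 1.09 in FPKM + 1, and for AUX1 it ran from 0.953 to 1.25. The widest of the 6 was that of FIB, from 0.873 to 1.33. On the log2 scale these intervals ran from -0.39 to 0.12 for PIN1d, from -0.07 to 0.33 for AUX1 and from -0.20 to 0.41 for FIB. For comparison, called genes are given on the log2 scale, though passing the same test favours large sizes. The 184 called genes with a mean of 1 to 5 FPKM had a median absolute log2 fold change of 0.58 and a smallest of 0.24. The 124 called genes of 5 to 20 FPKM had a median of 0.49 and a smallest of 0.21. These intervals do not show that the genotypes were alike.

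The sign of the difference held in every fit without a library for 5 of the 10 genes: PIN3a, YUCCA1, PIN1a, PIN1d and AUX1. When single libraries were left out, the log2 fold change ran from -0.33 to -0.19 for PIN3a, from -0.27 to -0.15 for YUCCA1, from -0.22 to -0.06 for PIN1d, from -0.14 to -0.02 for PIN1a and from 0.06 to 0.19 for AUX1. It crossed 0 for the other 5, FIB, PIN1b, PIN1c, YUCCA4 and PID.

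**Figure D3:**
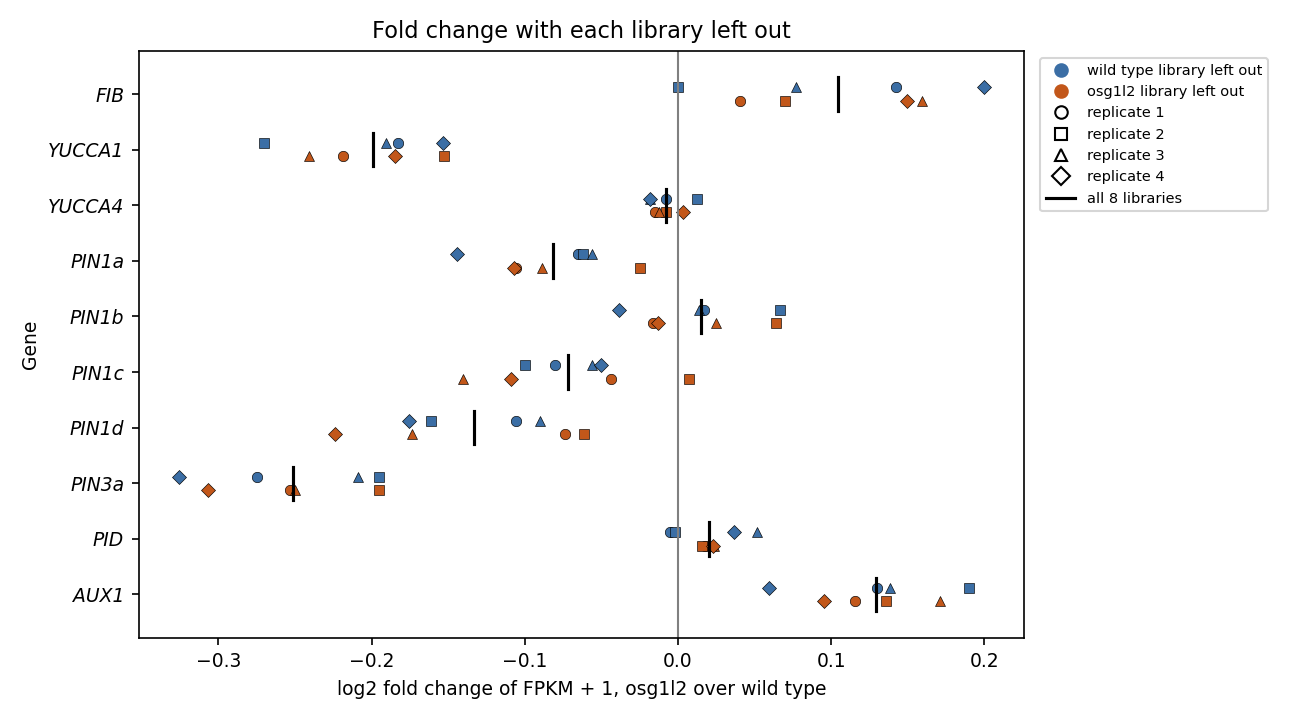
Log2 fold change of FPKM + 1, osg1l2 over wild type, for each gene with 1 library left out; colours give the genotype and symbols the replicate number of the library left out, and the vertical bars the value with all 8 libraries. All points of PIN3a, YUCCA1, PIN1a and PIN1d lie below 0 and all points of AUX1 above 0.

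The order of FPKM levels was nearly the same in both genotypes. In wild type it ran from PIN1d through PIN1c, PIN1b, PIN1a, AUX1, FIB, PIN3a, YUCCA1 and PID to YUCCA4. The steps from PIN1d to PIN1c, PIN1b to PIN1a, FIB to PIN3a and PID to YUCCA4 were larger than the spread, since the 4 values of the one gene all lay above those of the next, while the other neighbours overlapped. In osg1l2 the order differed only in AUX1 standing above PIN1a, which overlapped in both genotypes, and the PIN1d and PIN1c values also overlapped. By the ratio of mean FPKM, the step from FIB down to PIN3a was 3.50 times in wild type and 6.10 times in osg1l2. This ratio was not tested, neither gene was called, and the values of each gene overlapped between the genotypes.

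The authors' own comparison, which gives 1 value per genotype, called 760 of 37619 entries at q under 0.05 (2.02%) and 0 of the 10 members. The lowest q in the authors' deposited table was 0.18, for AUX1, and the next was 0.21, for YUCCA1. The log2 fold changes in the authors' deposited table, which carry no added 1, were 0.25 for AUX1, -0.57 for YUCCA1 and -0.34 for PIN3a. The largest of the 10 in size was thus that of YUCCA1 there, not that of PIN3a as by mean FPKM. Of the 10, 9 had the same sign in the authors' deposited table as in the FPKM table. The 2 tables come from the same series, so this is no independent check. PIN1a was at 0.04 in the authors' deposited table. That table gave wild type values from 1.73 to 3.72 times the mean wild type FPKM of the same gene, lowest for PIN1d and highest for PID, so the 2 tables weight these genes differently. The order of levels changed with it. In the authors' deposited table the highest value was that of PIN1c in wild type (17.8) and of PIN1b in osg1l2 (18.1), and PIN1a was above AUX1 in both genotypes. In osg1l2, PID at 1.62 was above PIN3a at 1.35 and YUCCA1 at 0.995 in the authors' deposited table. In wild type, PID at 1.484 was level with YUCCA1 at 1.482 and below PIN3a at 1.71.

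Genes beside the members in identifier order were also uncalled. Of the 20 nearest tested genes on either side, 0 passed the limma test, with log2 fold changes from -0.27 to 0.27, and 1 had separated genotypes (11.8% of tested genes did). That gene, Os01g0642900, lies before PIN3a and averaged 5.26 FPKM in wild type and 4.63 FPKM in osg1l2 (limma adjusted p = 0.26). PIN3a and YUCCA1, the 2 members with the largest proportional differences, lie near each other on chromosome 1, with 14 identifiers between them, 4 of which were tested. All 4 had log2 fold changes below 0 (61.7% of all tested genes did), from -0.14 to -0.0078, and 0 were called; this stretch was examined after the values of both members had been seen.

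The tested genes most like AUX1 over the 8 libraries were Os01g0547000, Os01g0857600 and Os09g0532700, by the root mean square difference of log2(FPKM + 1) profiles centred on their own means (0.035, 0.045 and 0.048). The tested member closest to AUX1 by this measure was PIN1b, at 0.086, which ranked 189 among all tested genes.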

How the data were processed

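The authors deposited 1 table of FPKM values per gene and library, and the submitters' processing notes name the build IRGSP-1.0. No source used here gives the aligner, the quantification program or strandedness. Whether reads of overlapping or antisense genes were separated in these FPKM is therefore unknown. A second deposited table holds the authors' comparison: 1 value per genotype with no unit and a log2 fold change, both treated as a score, and a q-value, per the file headers. FPKM are estimates from which whole reads were not recovered, so no count test was run and no detection floor is given.

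Genes averaging 1 FPKM or more were tested for genotype (limma 3.58.1, R 4.3.3) on log2(FPKM + 1), two-sided, with an intensity trend and Benjamini-Hochberg adjustment over all 18254 genes, and called at an adjusted p under 0.05. The added 1 understates changes of low genes. Exact permutation tests used scipy 1.17.1 in Python 3.11.15. The procedure was tested on simulated data, the outcome of which is not given here. Replicate numbers are not said to pair the libraries, so the main fit was unpaired. All 10 members are named; likeness was measured for the member with the smallest p, since none was called. The members, lists and tests were chosen with earlier results of these data known. Further TAA1, YUCCA, PIN, kinase and carrier genes were not analysed here, because the reference gene table held 1 of the 37859 identifiers and none of the 10 members. Alternatives were other pseudocounts, filters, scalings, library weights, a robust prior, a replicate block and leaving out each library; the ratio of PIN1d to PIN1c was added after seeing the data.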

Additional observations from a re-analysis of the deposited data

Results flagged for a closer look

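PIN1a in wild type had 1 library far from the other 3: replicate 4 was at 2.87 FPKM, against 3.57 to 3.65 FPKM, and its gap to them took up 0.886 of the wild type range (critical value 0.829). Without this library the log2 fold change of PIN1a was -0.14 (limma adjusted p = 0.40), against -0.08 with it, and the smallest size with a library left out was -0.02 without osg1l2 replicate 2 (limma adjusted p = 0.89). Wild type replicate 2 stood apart on the second principal component of all tested genes, at -28.4, with a gap of 0.849 of the wild type range. It also held the lowest wild type values of FIB, YUCCA1 and PIN1c and the highest of YUCCA4, PIN1b, PIN3a and AUX1; its part in these genes' results was not tested beyond leaving it out. These were 2 of 26 groups of 4 values examined, where chance flags about 1 in 20.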

How the results depend on the processing

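No alternative called any of the 10 genes, whether it tested 3 of them (a mean of at least 5 FPKM), 6 or 10 (no filter); the smallest limma adjusted p was 0.20, for AUX1 without wild type replicate 2. Over all genes, the count of 352 became 153 at a mean of at least 5 FPKM, with fewer genes tested, 1097 with library quality weights (6.01%), 152 with the replicate number as a block, and 157 to 831 with each library left out, highest without wild type replicate 2. The cause of the last 3 changes was not tested. Whether libraries with the same number were handled together is not stated. Their deviations from their genotype mean had correlations of 0.069, -0.017, -0.091 and -0.12. No wild type library correlated best with its own number. Such values cannot show how the libraries were handled. Among the tested genes, signs turned for 3: FIB to -0.00028 without wild type replicate 2, PIN1b (leave-one-out range -0.038 to 0.067) to -0.038 without wild type replicate 4, -0.017 without osg1l2 replicate 1 and -0.013 without osg1l2 replicate 4, and PIN1c (-0.14 to 0.0072) to 0.0072 without osg1l2 replicate 2. PIN1a, PIN1d and AUX1 kept their sign throughout. With libraries rescaled by the median of ratios, the log2 fold change of each of the 6 tested genes was higher than in the main fit. These values were -0.049 for PIN1a, -0.034 for PIN1c, -0.095 for PIN1d, 0.052 for PIN1b, 0.14 for FIB and 0.16 for AUX1. PIN3a and YUCCA1 stayed below 0 in every alternative that gave them a value, from -0.57 to -0.19 and from -0.47 to -0.15, the largest sizes coming with a pseudocount of 0.1. The ratio of PIN1d to PIN1c in osg1l2 over that in wild type was 0.954 and ran from 0.912 to 0.981 without single libraries. The depth of the libraries is unknown, so what it limits for the 4 genes under 1 FPKM could not be assessed.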
